A study of Mus musculus with 2 samples.

Results

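The transcripts described here are 9 long noncoding RNAs that carry microRNAs: Mir17hg, Mir22hg, Mir142hg, Mir155hg, Mir124a-1hg, Mir124-2hg, Mir9-3hg, Mir99ahg and Dnm3os. They were chosen by symbol, as the 9 of 43629 genes in the count tables whose Ensembl identifiers carry these names in the GENCODE M21 mouse annotation (GRCm38, also called mm10). The study sequenced polyadenylated RNA from mouse embryonic stem (ES) cells with a 129/Ola background and blastocyst as their tissue, at passage 7 and labelled Dgcr8 knockout. The 2 libraries, replicates A and B, form 1 group, so every sample carries the knockout and there is no wild-type sample among them. The titles also hold the codes KO2 and d5, which the labels do not explain, and whether A and B came from different cultures is not stated, so their spread may be only technical.

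MicroRNAs begin as long primary transcripts in which each microRNA lies inside a hairpin. In the nucleus the Microprocessor, the nuclease Drosha with its RNA-binding partner Dgcr8, cuts the hairpin out, and Dicer then trims it to the mature microRNA. A hairpin can lie in an exon of its host, where the cut breaks the spliced transcript, or in an intron, where the spliced host can remain. Bases 2 to 8 of the mature microRNA, the seed, pair with target messenger RNAs. The members fall into groups by the cells known to use them: the miR-17-92 cluster of proliferating cells, the broadly expressed miR-22, miR-142 and miR-155 of blood cells, miR-124 and miR-9 of the nervous system, and miR-99a, let-7c, miR-125b, miR-199a and miR-214 of differentiated and mesenchymal cells.

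The mature sequences below, from RefSeq on GRCm38.p6, show which microRNAs the measured hosts would yield. They are written 5′ to 3′ with the seed in capitals. The 6 arms shown first, all from Mir17hg, have 4 seeds, since miR-17-5p and miR-20a-5p share one and miR-19a-3p and miR-19b-3p share another.
miR-17-5p: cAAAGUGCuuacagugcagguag
miR-20a-5p: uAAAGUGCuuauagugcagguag
miR-18a-5p: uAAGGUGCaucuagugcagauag
miR-19a-3p: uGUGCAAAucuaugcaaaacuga
miR-19b-3p: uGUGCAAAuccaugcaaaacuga
miR-92a-3p: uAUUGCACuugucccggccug
The next microRNAs lie in Mir22hg, Mir142hg, Mir155hg, Mir9-3hg, Mir99ahg (3 sequences) and Dnm3os (2 sequences), in this order, while miR-124 of Mir124a-1hg and Mir124-2hg is named only.
miR-22-3p: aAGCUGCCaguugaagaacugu
miR-142a-3p: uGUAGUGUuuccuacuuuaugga
miR-155-5p: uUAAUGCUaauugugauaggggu
miR-9-5p: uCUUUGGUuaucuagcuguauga
miR-99a-5p: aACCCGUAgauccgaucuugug
let-7c-5p: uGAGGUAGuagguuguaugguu
miR-125b-5p: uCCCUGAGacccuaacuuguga
miR-199a-5p: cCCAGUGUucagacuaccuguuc
miR-214-3p: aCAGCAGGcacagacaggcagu
The last line gives miR-291a-3p, of the miR-290 family that is abundant in wild-type ES cells, for comparison with Mir17hg.
miR-291a-3p: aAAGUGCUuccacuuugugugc

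The letters AAGUGC stand within the seeds of miR-17-5p, miR-20a-5p and miR-291a-3p. They occur within bases 2 to 8 of 16 of the 1679 mature mouse microRNA names in the table (0.953%), searched on the strand of the mature RNA. Among the 29 mature names of the hosts that the table holds, which do not include miR-124, these are the 2 from Mir17hg. The seed of miR-17-5p and miR-20a-5p also occurs in miR-93-5p and miR-106b-5p, known from an intron of Mcm7. The match is one of letters, and no microRNA was measured in these libraries.

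The hairpins differ in where they lie. Of 18 hairpin genes on the strand of a member, 12 lay whole in an annotated exon, 1 (Mir124a-2, in Mir124-2hg) crossed the edge of an exon by 27 bases, and 5 lay in introns. All 6 hairpins of Mir17hg lay in its last exon, from 0.792 to 1.63 kb beyond the gene start, and took up 536 of its 3536 exonic bases (15.2%). The hairpins of Mir142hg, Mir9-3hg and Mir99ahg were intronic. A pair of hairpins that the spliced hosts keep whole is shown, with the bases of the mature arms in capitals. Mir17 (chr14:115043671-115043754, plus strand) was found from base 480 of the annotated Mir17hg transcript, and Mir22 (chr11:75463716-75463810, plus strand) in both annotated transcripts of Mir22hg.
Mir17: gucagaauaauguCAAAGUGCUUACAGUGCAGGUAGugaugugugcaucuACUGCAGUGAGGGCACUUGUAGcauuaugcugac
Mir22: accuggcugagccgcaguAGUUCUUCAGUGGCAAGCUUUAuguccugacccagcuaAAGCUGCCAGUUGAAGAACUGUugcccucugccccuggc

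**Figure D1:**
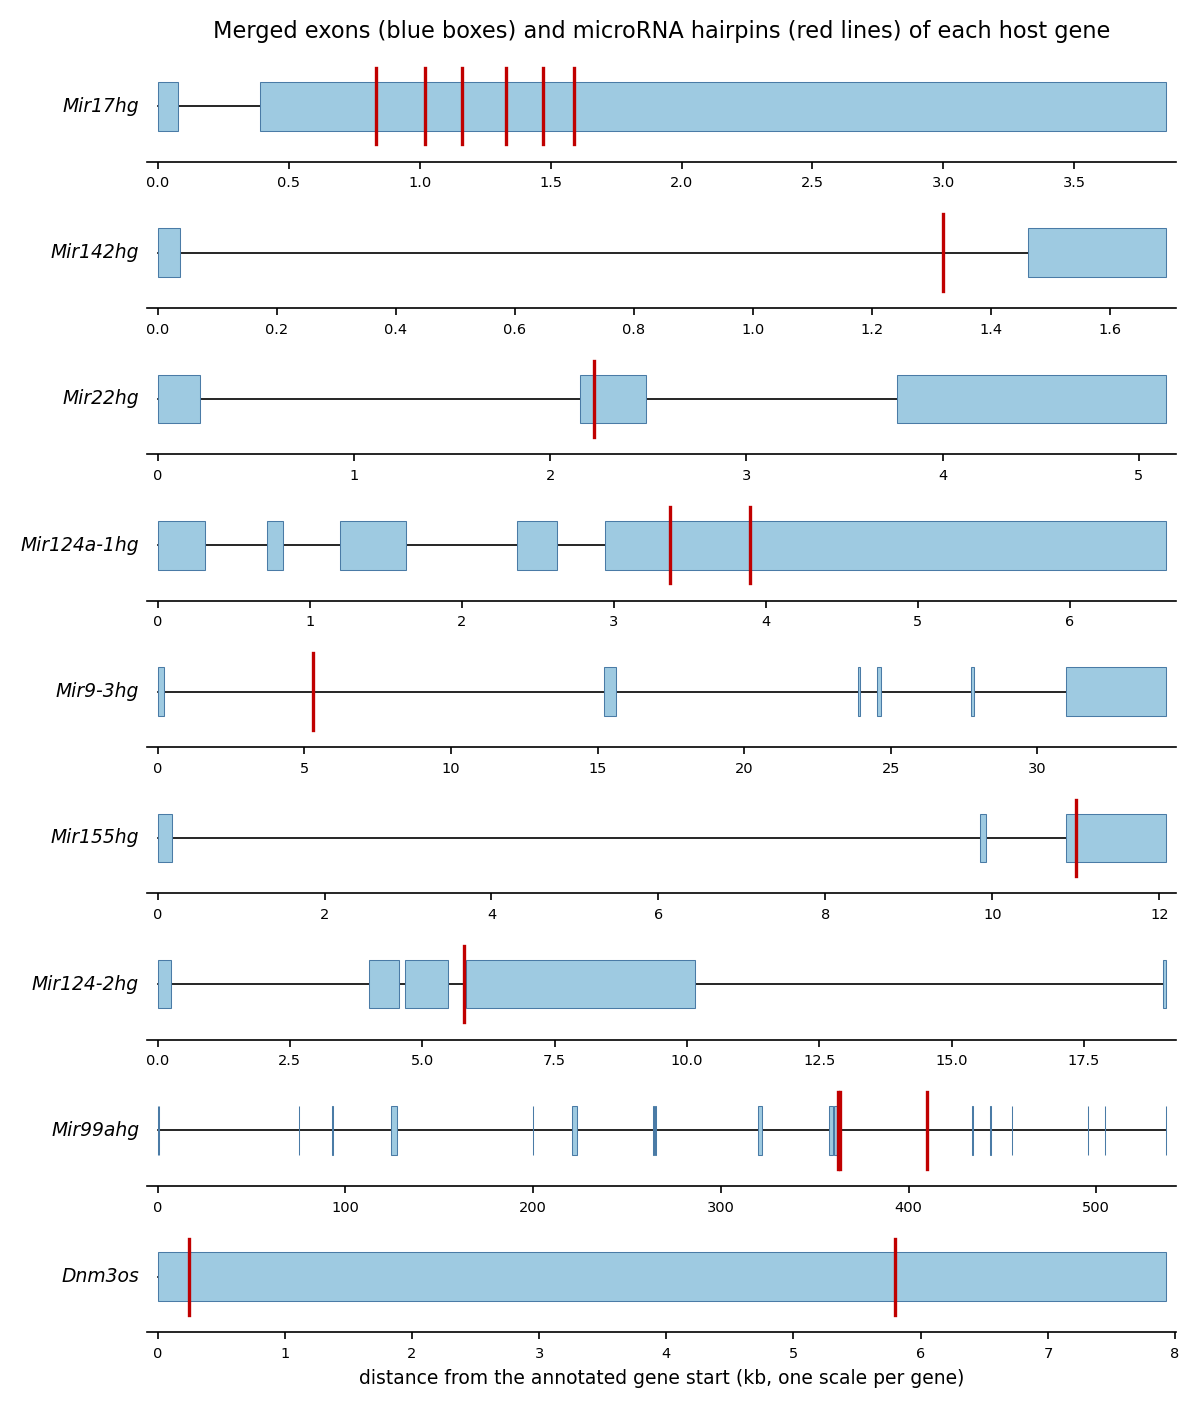
Maps of the 9 host genes in order of level per kilobase, drawn from the annotated gene start in kb with a separate scale for each gene. Blue boxes are exons merged over all annotated transcripts and red lines are microRNA hairpins; the 6 hairpins of Mir17hg stand in its last exon, whereas those of Mir142hg, Mir9-3hg and Mir99ahg stand in introns.

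Library A held 27872396 counts and library B 30327146. A gene is compared with itself in CPM (its counts per 1000000 of the library total), and with other genes in RPKM (CPM per kilobase of merged exons). Values with ± give the mean and the SD of the libraries (n = 2). Intervals are exact two-sided 95% Poisson limits. A count of 0 is shown at a floor of 3 counts, or 0.108 CPM for A and 0.0989 CPM for B. The exact two-sided upper limits for a count of 0 are higher, at 0.132 CPM for A and 0.122 CPM for B. Intervals and floor cover counting error only, because PCR reads are not independent molecules. Dgcr8 itself held 1253 counts in A and 1942 in B, and counts per gene do not show whether its edited part was read. All 7 ES cell markers reached 1 CPM in both libraries, among them Pou5f1, which encodes the pluripotency factor Oct4, with 50315 and 46765 counts. Zfp42 and Esrrb, genes of further pluripotency factors, reached 658 ± 14.4 and 639.9 ± 3.38 CPM.

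Of the 9 host transcripts, 4 reached 1 CPM in both libraries (Mir17hg, Mir22hg, Mir124a-1hg and Mir142hg) and 5 lay under 1 CPM in both. Of all 43629 genes 30.6% reached that level, and of the 5694 genes annotated as long noncoding 5.5%. The median level of the members was 0.790 CPM, against 0.0179 CPM over all genes and 0 over long noncoding genes. Mir99ahg and Dnm3os had 0 counts in both libraries, which was also the case for 59.2% of long noncoding genes. The members were chosen for what they carry and are few, so these shares describe them and are not tested.

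**Figure D2:**
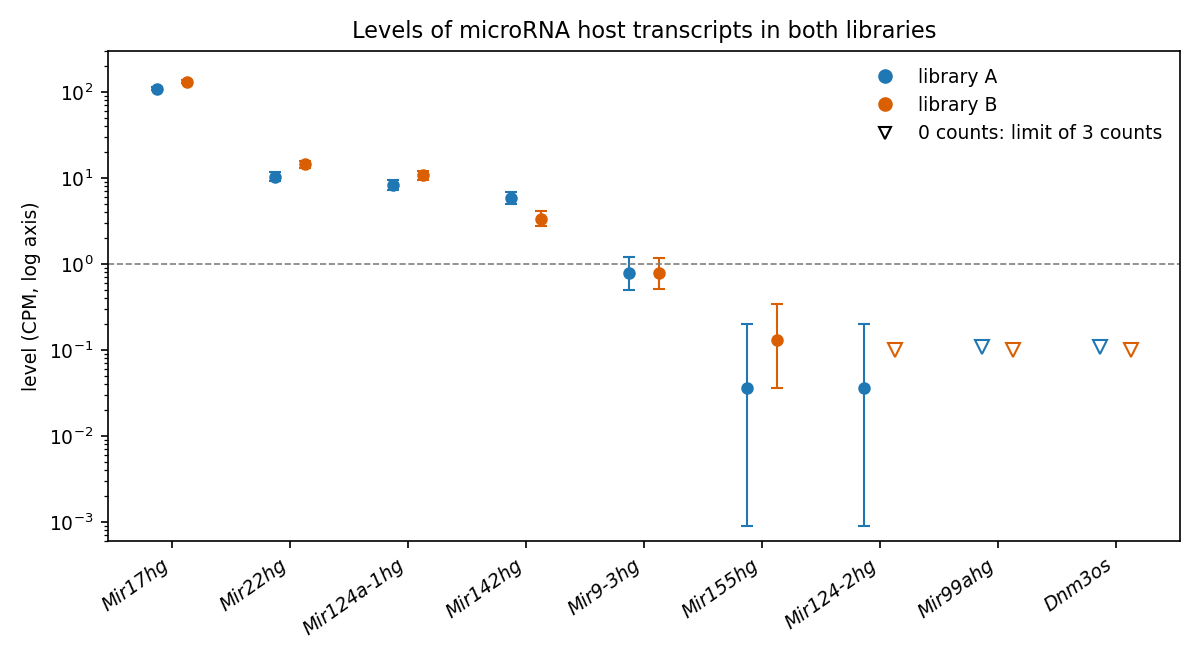
Level of each host transcript (CPM, log axis) in library A (blue) and library B (orange), with exact 95% Poisson intervals as bars and open triangles at the limit of 3 counts where the count was 0. The dashed line marks 1 CPM; Mir17hg lies far above the others at 109 and 131 CPM, and 5 transcripts lie under the line in both libraries.

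Mir17hg, the host of the miR-17-92 cluster (ENSMUSG00000089726, chromosome 14, 115042879 to 115046727, plus strand), was the most abundant member. It held 3038 counts in A and 3981 in B, which is 109 CPM (105 to 113) and 131 CPM (127 to 135), or 120.1 ± 15.7 CPM. Both libraries were of the same order and B was the higher. This single transcript made up 81.2% of the counts of all 9 members in A and 81.7% in B. Per kilobase it reached 30.8 RPKM in A and 37.1 in B, or 34.0 ± 4.45 RPKM, which exceeded 99.1% of the long noncoding genes that had a count and 91.9% of all genes that had one. The sources used here do not say how reads on both the host and a hairpin gene were assigned, so its level may leave out reads from the hairpins.

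Mir22hg (ENSMUSG00000085148, chromosome 11, 75461539 to 75466676, plus strand) carries miR-22, a microRNA known from heart, muscle and blood. It held 288 counts in A and 435 in B, or 10.3 CPM (9.17 to 11.6) and 14.3 CPM (13.0 to 15.8). The mean was 12.3 ± 2.84 CPM, and the level per kilobase 6.41 ± 1.47 RPKM. The intervals of the libraries do not overlap, and B was the higher. Its exons share 206 of 1924 bases with exons of Tlcd2, a protein-coding gene on the same strand with 111 counts in A and 50 in B. Reads from the shared bases cannot be told apart between these genes.

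The hosts of blood cell microRNAs differed from each other. Mir142hg (ENSMUSG00000084796, chromosome 11, 87755577 to 87757270, plus strand), whose microRNA is a mark of the blood lineages, held 162 counts in A and 102 in B. That is 5.81 CPM (4.95 to 6.78) and 3.36 CPM (2.74 to 4.08), or 4.59 ± 1.73 CPM, with A the higher. Its annotated exons span only 269 bases, so its level per kilobase was 21.6 RPKM in A and 12.5 in B, or 17.1 ± 6.44 RPKM, and rests on that gene model. Its hairpin gene lies in the intron and had no row in the tables. Mir142b, the hairpin gene annotated on the opposite strand, had 1 count in A and 0 in B. Mir155hg (ENSMUSG00000097418, chromosome 16, 84703167 to 84715245, plus strand), the host of a microRNA of activated lymphocytes, had 1 count in A and 4 in B. These counts give 0.0359 CPM (0.000908 to 0.200) for A and 0.132 CPM (0.0359 to 0.338) for B, and the intervals overlap.

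Of 10 blood cell markers, 3 reached 1 CPM in both libraries. Of all genes 30.6% did, which is the share to set beside this list and the marker lists below. The summed level of the 10 blood cell markers was 104 CPM in A and 131 CPM in B. Most of that sum was Laptm5, a lysosomal protein gene of blood cells, at 106 ± 22.8 CPM, followed by the lymphocyte receptor genes Cd3e at 6.75 ± 1.76 CPM and Cd79a at 2.78 ± 1.65 CPM. Ptprc, which encodes the pan-leukocyte antigen CD45, had 1 count in A and 5 in B, and the globin gene Hbb-bs had 0 in both. Of 4 blood markers tested, 1 was called higher in B and 3 higher in A, beside 38.4% in each direction over all tested genes. Laptm5 was higher in B, whereas Cd3e and Cd79a were among those higher in A, as was Mir142hg. The part of blood cells in the level of Mir142hg was not tested. In bulk RNA, fewer cells of a type and less RNA per cell cannot be told apart.

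The hosts of nervous system microRNAs stood at very different levels. Mir124a-1hg (ENSMUSG00000097545, chromosome 14, 64587331 to 64593961, plus strand), 1 of several loci that encode miR-124, the major microRNA of neurons, held 231 counts in A and 324 in B. That is 8.29 CPM (7.25 to 9.43) and 10.7 CPM (9.55 to 11.9), or 9.49 ± 1.69 CPM and 1.97 ± 0.353 RPKM. Mir124-2hg (ENSMUSG00000100252, chromosome 3, 17789921 to 17808970, plus strand), the host at another miR-124 locus, had 1 count in A and 0 in B. Mir124-2hg was thus at the edge of detection in libraries that held over 200 counts of Mir124a-1hg.

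Mir9-3hg (ENSMUSG00000097023, chromosome 7, 79500026 to 79534403, plus strand), a host of miR-9, which acts in neural progenitors, lay just under 1 CPM. It held 22 counts in A and 24 in B, which is 0.789 CPM (0.495 to 1.2) and 0.791 CPM (0.507 to 1.18). Both intervals reach past 1 CPM, so the side of that line on which it lies was not settled at this depth. Its level per kilobase was 0.181 RPKM in each library.

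Of 10 neural markers, 6 reached 1 CPM in both libraries, with a summed level of 147 CPM in A and 108 CPM in B. Tubb3, a neuronal tubulin gene, reached 60.1 ± 20.8 CPM, Nes, an intermediate filament gene of neural progenitors, 35.8 ± 1.22 CPM and Neurod1, a neurogenic transcription factor gene, 18.1 ± 2.76 CPM. Dcx, a gene of migrating young neurons, had 0 counts in both libraries, and Neurog2 had 0 in A and 1 in B. The sum was higher in A, whereas Mir124a-1hg was higher in B. The part of neural cells in the level of Mir124a-1hg was not tested.

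Hosts of microRNAs of differentiated and mesenchymal cells were not detected. Mir99ahg (ENSMUSG00000090386, chromosome 16, 77236317 to 77773427, plus strand) spans 537 kb with 18 merged exons and holds the hairpins of miR-99a, let-7c and miR-125b in introns. It had 0 counts in both libraries, and so did each of its 3 hairpin genes and each of the 15 other genes annotated within its span. Usp25, the nearest gene upstream with a row in the tables, lies 119.5 kb away and held 124 counts in A and 134 in B. Dnm3os (ENSMUSG00000078190, chromosome 1, 162217623 to 162225550, plus strand) carries miR-199a and miR-214 and lies inside Dnm3 on the opposite strand, with no exonic base in common. It had 0 counts in both libraries, and Dnm3, a dynamin gene, had 1 in A and 2 in B.

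Of 10 fibroblast and mesenchyme markers, 6 reached 1 CPM in both libraries, with a summed level of 224 CPM in A and 213 CPM in B. Vim, an intermediate filament gene expressed in many cell types, supplied most of it at 177 ± 3.88 CPM, ahead of Thy1 at 26.7 ± 6.74 and Pdgfrb at 7.12 ± 4.99 CPM. The collagen gene Col1a1 had 81 counts in A and 37 in B, and the mesenchymal transcription factor gene Twist1 78 and 91. Prrx1, a limb mesenchyme factor gene, and Postn, a matrix protein gene, had 0 in both.

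Ordered by level per kilobase, the members ran Mir17hg, Mir142hg, Mir22hg, Mir124a-1hg, Mir9-3hg, Mir155hg and Mir124-2hg, followed by the undetected Mir99ahg and Dnm3os. Down to Mir124-2hg, no neighbours in this order had overlapping values over the libraries, but the gaps differed in width. Mir124-2hg, at 0 in B, could not be told from the undetected pair in that library. Mir17hg exceeded Mir142hg 1.43-fold in A and 2.97-fold in B, and the ratio of Mir142hg to Mir22hg was 4.02 for A and 1.68 for B. The step from Mir124a-1hg to Mir9-3hg was 9.54-fold for A and 12.3-fold for B. Without the correction for length Mir142hg moved to rank 4, behind Mir22hg and Mir124a-1hg. With 5 and 1 counts in all, the order of Mir155hg and Mir124-2hg cannot be told from counting error.

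The hairpin genes on the strand of their hosts gave no counts. All 17 that had a row in the tables stood at 0 in both libraries, against 379 of 1894 microRNA genes with at least 1 count in all (20.01%). This held for the hairpins in exons of Mir17hg, Mir22hg and Mir124a-1hg, whose hosts held from 231 to 3981 counts. Whether hairpin bases were left uncounted because they belong to 2 genes was not tested.

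The long noncoding genes whose levels came closest to those of Mir17hg over the 2 libraries, by Euclidean distance of log2(CPM + 0.5), were Mirg (118.5 CPM in A and 134.8 in B, distance 0.126) and Platr10 (98.5 and 147 CPM, distance 0.217). For Mir142hg they were BC051226 (5.45 and 3.43 CPM, distance 0.0879) and Gm17586 (5.67 and 3.59 CPM, distance 0.0901). With 2 libraries this measures likeness of level alone.

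The difference between the libraries gives the spread of these levels over 1 pair, which may be only technical. Each gene's counts were compared by an exact binomial test (two-sided) with TMM-scaled library sizes, which allows for counting error only. The Benjamini-Hochberg adjustment of its p-values ran over the 14583 genes that reached 1 CPM in A or in B. At an adjusted p under 0.05 it called 76.8% of them, 38.4% higher in B and 38.4% higher in A. With library totals in place of TMM, the calls were 4851 toward B against 6431 toward A, and the 4 hosts kept their directions. All 4 host transcripts tested were called, 3 of them higher in B and the other in A. These 4 genes are too few to set this share apart from the background. Of the 435 long noncoding genes tested, 63.2% were called. What is compared here is a pair of libraries and no condition, and every tested member reached 1 CPM in both.

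Mir17hg was 1.28-fold higher in B (exact 95% interval of the ratio 1.22 to 1.35, exact binomial test, adjusted p = 7.5e-25). Mir22hg was 1.48-fold higher in B (1.27 to 1.72, exact binomial test, adjusted p = 4.5e-07). Mir124a-1hg was 1.37-fold higher in B (1.16 to 1.63, exact binomial test, adjusted p = 0.00036). Mir142hg was 1.62-fold higher in A (1.26 to 2.10, exact binomial test, adjusted p = 0.00022). These differences were of ordinary size: among genes within 2-fold of their levels, 46.1% to 57.1% had a smaller log2 ratio in either direction. With a pseudocount of 0.5 CPM, the log2 ratio of B over A was 0.36 for Mir17hg, 0.54 for Mir22hg, 0.44 for Mir124a-1hg and -0.63 for Mir142hg.

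Ratios between the libraries moved with GC content across all tested genes. The median log2 ratio of B over A was 0.53 among the 10% of genes with the lowest GC content and -0.57 among the 10% with the highest. Mir17hg, with 40.1% GC, belongs to the lowest 10% and Mir142hg, with 59.1%, to the highest. Measured from the median of their own bin, Mir17hg stood at -0.17 and Mir142hg at -0.05. The higher level of Mir17hg in B was thus not seen against genes of like GC content. Mir142hg, higher in A, lay close to the median of its bin. Mir22hg (44.7% GC) and Mir124a-1hg (51.3% GC) stayed higher in B on that scale, at 0.30 and 0.47. The part of GC content in these ratios was not tested.

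**Figure D3:**
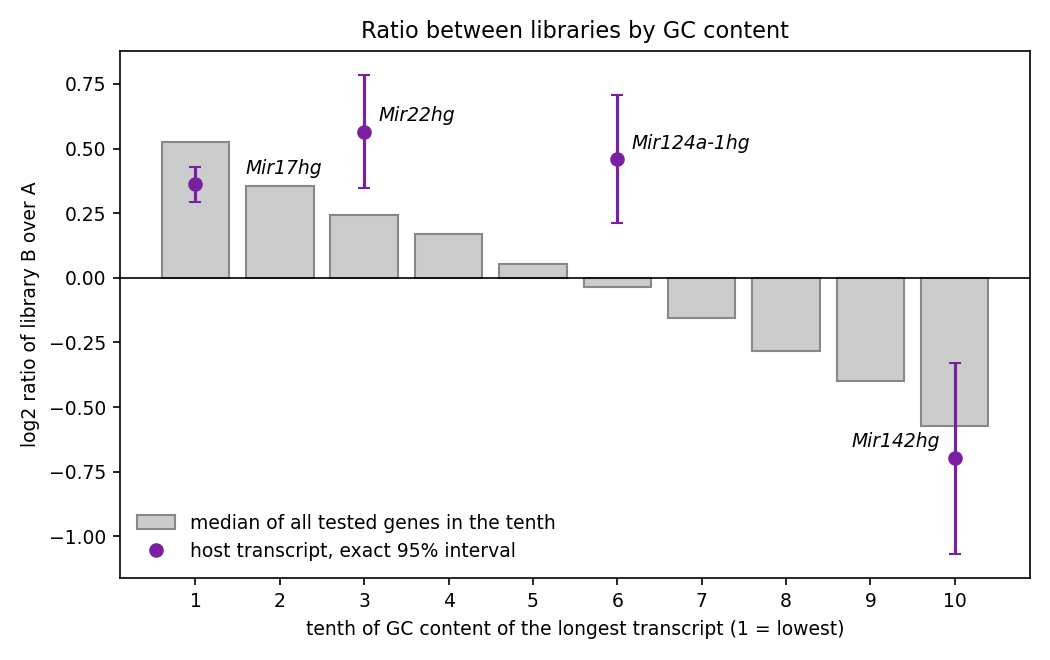
Log2 ratio of library B over A by GC content of the longest transcript, in 10 bins of equal size. Grey bars are medians of all tested genes in each bin, on the scale of log2(CPM + 0.5), and fall from 0.53 to -0.57; purple points are the 4 host transcripts as ratios of scaled counts, with exact 95% intervals, and Mir17hg and Mir142hg lie in the lowest and the highest bin.

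Genes near the hosts ranged widely in level, and whether these levels follow those of the hosts was not tested. Prpf8, a spliceosome gene 20.1 kb downstream of Mir22hg, held 15043 counts in A and 28674 in B, and Wdr81, 6.82 kb upstream, 555 and 341. Mrpl39, a mitochondrial ribosome gene on the opposite strand whose 3′ end lies 2.33 kb beyond Mir155hg, had 2416 counts (A) and 2846 (B) beside the 1 and 4 of the host. Polg, the mitochondrial DNA polymerase gene 33.7 kb upstream of Mir9-3hg, held 2556 and 2724. Rhcg, on the other side of that host, had 31 and 28. Around Mir124a-1hg, the kinesin gene Kif13b, 53.3 kb downstream, had 437 counts in A and 1117 in B, whereas Msra, 131 kb upstream, had 265 and 210. Gpc5, which follows Mir17hg at 45.5 kb, had 7 counts in A and 1 in B, and Gm24073, 62.3 kb upstream of the same host, had 0 in both. Tspoap1, 3.27 kb downstream of Mir142hg on the same strand, had 103 counts in A and 58 in B. Supt4a, 11.95 kb upstream of Mir142hg, held 1402 and 1287. The nearest genes of Mir124-2hg (Gm38154 and Cypt12), of Dnm3os (Gm37767 and Gm16101), Gm25292 upstream of Mir155hg and Gm17333 downstream of Mir99ahg had 0 to 3 counts, as did Gm23441 inside Mir124-2hg and 3 unclassified genes (A330074H02Rik, 2900037B21Rik and Gm37608) inside Mir9-3hg.

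Other hosts put these levels in context. Of 30 genes known to hold a microRNA in an intron, all but 4 (26) reached 1 CPM in both libraries, and their median level was 7.70 RPKM against 0.181 RPKM over the 9 members and 6.55 RPKM over all genes at 1 CPM or more in both. Mcm7, a replication helicase gene whose intron holds miR-106b, miR-93 and miR-25, reached 156 ± 14.5 RPKM, so this host of Mir17hg-related microRNAs stood above Mir17hg itself in both libraries. Copz1, a coat protein gene that hosts miR-148b, reached 87.3 ± 8.55 RPKM, and Huwe1, a ubiquitin ligase gene that hosts miR-98 and let-7f, 23.1 ± 10.9 RPKM. Of 28 tested, 8 were called higher in B and 17 higher in A, where 76.8% of all tested genes were called, 38.4% in each direction.

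Noncoding hosts other than the 9 members were also read. Of 10 such symbols 6 were measured, and all 6 reached 1 CPM in A and in B. Their median was 8.78 RPKM, while it was 0.0315 RPKM over all 84 annotated long noncoding hosts, a set that includes the 9 members. Of the 6 tested, 5 were called toward B and 1 toward A, beside the same 38.4% in each direction over all tested genes. The imprinted noncoding RNAs Rian (17.8 ± 4.98 RPKM), Meg3 (14.5 ± 0.223 RPKM) and Mirg (17.4 ± 1.58 RPKM) were the highest by CPM, and each lay below Mir17hg per kilobase in the same library. The gene higher in A, named here after its values were seen, was H19, the imprinted host of miR-675, with 342 counts against 91 in B.

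**Figure D4:**
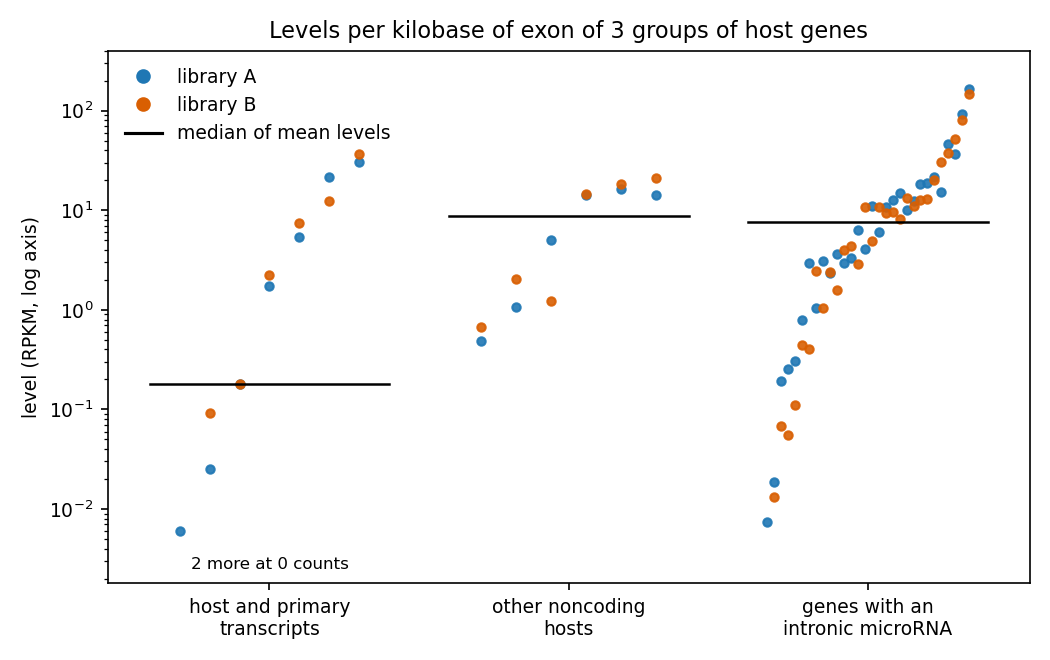
Level per kilobase of exon (RPKM, log axis) of the 9 host and primary transcripts, 6 other noncoding hosts and 30 genes with an intronic microRNA, with library A in blue, library B in orange and the median of the mean levels as a line. A library with 0 counts has no point. The medians stand at 0.181, 8.78 and 7.70 RPKM. Over all 84 annotated long noncoding hosts, not drawn as a group, the median was 0.0315 RPKM.

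The genes that process microRNAs were all read. All 7 reached 1 CPM in both libraries, led by Ran, the GTPase of nuclear export, at 676 ± 26.3 CPM, Drosha at 380.2 ± 97.5 CPM and Dicer1 at 173 ± 45.1 CPM. Of 10 endoderm markers 5 reached 1 CPM in both libraries, and their summed level was 81.1 CPM in A and 225 CPM in B. Of 7 tested, 5 were called higher in B and 2 higher in A, where 76.8% of all tested genes were called, 38.4% in each direction. The larger sum in B came mostly from the basement membrane genes Lama1 (94.7 ± 67.0 CPM) and Col4a1 (38.9 ± 25.1 CPM) and by Cubn, an endocytic receptor gene of visceral endoderm (7.91 ± 9.05 CPM). The genes higher in A, named after their values were seen, were the transcription factor gene Gata4 (198 counts in A and 149 in B) and Amn, a partner of Cubn (64 and 37). With 2 libraries, any gene higher in B goes with the endoderm sum, as the 3 hosts higher in B do, so this match carries no information. The part of endoderm cells in the ratios of these hosts was not tested.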

How the data were processed

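Each file holds the counts of 1 library for 43629 Ensembl genes, deposited by the authors as whole numbers with no normalization. Per the submitters' processing notes, the genome was mm10 and the tools were featureCounts 1.4.5-p1 and STAR 2.4.2a, without settings: the annotation release, the strand option and the handling of reads on several genes or sites are not given there. Levels of overlapping and antisense genes are therefore uncertain. Per the labels' protocols, RNA was taken with Trizol and libraries were made with a TruSeq kit by a reverse-stranded protocol.

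Symbols, positions, merged exon lengths and GC content (longest transcript) came from GENCODE M21, which matched 42462 identifiers, and microRNA sequences from RefSeq on GRCm38.p6. CPM used library totals. With 1 library on each side there are no residual degrees of freedom, so A and B were compared by an exact binomial test (scipy 1.17.1). Library sizes were scaled by TMM factors of 1.03 for A and 0.968 for B (edgeR 4.0.16). The test was tried on simulated counts with Poisson error only, which lack the GC trend of these libraries. It measures the difference between these libraries only. Other scalings (DESeq2 1.42.0, totals), filters, pseudocounts, lengths and Fisher's exact test were tried, and centring on GC content was added after seeing the data.

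The text names all members and the genes that overlap or neighbour them. It also names the 3 highest genes of each list by CPM, list genes at 0 counts and 6 defining markers. The 15 genes inside Mir99ahg are given as a count. Mir3078, in an exon of Mir124a-1hg, is counted among the hairpins but not named elsewhere. Among the genes named outside this rule are Neurog2, Dgcr8, H19, Gata4 and Amn. Members and lists were chosen with earlier results of these data known.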

Additional observations from a re-analysis of the deposited data

How the results depend on the processing

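The 4 hosts of the main test stayed called under DESeq2 size factors, library totals and Fisher's exact test. They also stayed called with no filter or a filter of 5 CPM. With no filter 7 hosts were tested, and only these 4 were called. Over all genes, the number called ranged from 9474 of 11472 tested (filter of 5 CPM) to 11653 of 23698 (no filter). The filter of 1 CPM used above gave 11201 of 14583 (76.8%). The log2 ratios of B over A of the 4 hosts kept their sign under every scaling and pseudocount tried. The exception was centring on genes of like GC content (10 bins), chosen after seeing the data. Under it Mir17hg changed sign from 0.36 to -0.17, and Mir142hg kept its sign but moved from -0.63 to -0.05. This centring gives no p. The adjusted p of Mir124a-1hg ranged from 0.00022 to 0.0049 (exact binomial or Fisher test). Library totals without TMM moved the median log2 ratio of all tested genes from -0.01 to -0.10. Without length, Mir142hg moved from rank 2 to rank 4, Mir22hg to rank 2 and Mir124a-1hg to rank 3, while longest transcript length kept every rank. The count of 4 hosts at 1 CPM became 5 at a threshold of 0.5 CPM, through Mir9-3hg, and held at 2 CPM and in either library alone. Leaving out a library ends the comparison between libraries, so that was not run for it.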

Other observations

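Over all long noncoding genes of the annotation that enclose a microRNA gene on their own strand, a set defined after values were seen, 84 had a row in the tables and 20 reached 1 CPM in both libraries (23.8%). Mir17hg had the highest level per kilobase of all 84, whose median was 0.0315 RPKM. Mir142hg stood at rank 4, Mir22hg at rank 8 and Mir124a-1hg at rank 12. The rank of Mir142hg rests on its annotated exons of only 269 bases. Of 38 hosts with a hairpin whole in an exon 15 reached 1 CPM in both libraries (39.5%), and of the 46 without one 5 did (10.9%). Between Mir142hg and Mir22hg lay, among others, Gm27000 at 10.97 RPKM and E130102H24Rik at 8.29 RPKM, both with a hairpin in an exon. These shares are descriptions of 2 knockout libraries and were not tested, and hosts in 1 cluster share a locus.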
